A study of Mus musculus with 18 samples.

Results

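The effect of substrate rigidity on mRNA levels was followed in control fibroblasts whose LINC complex was intact. KDEL cells on a stiff 308 kPa gel were compared with KDEL cells on a soft 1 kPa gel, which took 6 of the 18 mRNA libraries of the study, chosen by their labels alone: 3 on each gel, all without a myosin inhibitor. KDEL cells are NIH 3T3 mouse embryonic fibroblasts of an inducible Tet-ON line that carries SS-GFP-KDEL, a green fluorescent protein held in the endoplasmic reticulum. The line was made with retrovirus, selected with puromycin and sorted by fluorescence. In all 6 libraries the construct was induced with 1 µg/ml doxycycline, and the cells had been on fibronectin-coated polyacrylamide gels for 48 hr at lysis. Other libraries used below came from SUN1L cells, which carry SS-HA-SUN1L-KDEL, a dominant-negative lumenal SUN1 domain that disrupts the LINC complex. They had the same induction and time, with 3 on 1 kPa and 3 on 308 kPa. Levels of some genes are also given for KDEL cells on 308 kPa with a myosin inhibitor, under the same induction and time. Of these libraries, 3 had 25 µM Y27632 (Y27) and 2 had 10 µM blebbistatin. The methods of the study describe 3 biological replicates per condition.

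Adherent fibroblasts pull on their substrate through integrins and focal adhesions, and a stiffer substrate resists that pull. Tension in the actin cytoskeleton is known to release the transcriptional coactivators MRTF, which acts with SRF, and YAP and TAZ, which act with TEAD factors, and to free latent TGF-beta that is stored in the matrix. The LINC complex, made of SUN proteins in the inner and nesprins in the outer nuclear membrane, couples the cytoskeleton to the lamina. Genes of these pathways, and of the matrix that fibroblasts make, are the usual readouts of rigidity sensing.

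The promoters of 3 genes show sequence elements known from the gene groups described below. Each run holds the 250 bases before the start of the gene, read 5′ to 3′ on the gene's own strand, from RefSeq on GRCm38.p6. Capitals mark the motif matches, on either strand, of the group to which the gene belongs, and no marked match overlaps another. Srf, the serum response factor that is itself an SRF target, lies on the minus strand and its window is chr17:46556163-46556412, with a CArG box starting 82 and another 62 bases before the start. Ccn1, called Cyr61 in the expression table and a YAP/TAZ target, has its window at chr3:145649986-145650235 on the minus strand, with the TEAD motif CATTCC at 103 bases. Cdc20, the activator of the anaphase-promoting complex, has its window at chr4:118437344-118437593 on the minus strand, with TTTGAA, the letters of the cell cycle homology region, at 18 bases and CCAAT at 53 and 8 bases.
Srf: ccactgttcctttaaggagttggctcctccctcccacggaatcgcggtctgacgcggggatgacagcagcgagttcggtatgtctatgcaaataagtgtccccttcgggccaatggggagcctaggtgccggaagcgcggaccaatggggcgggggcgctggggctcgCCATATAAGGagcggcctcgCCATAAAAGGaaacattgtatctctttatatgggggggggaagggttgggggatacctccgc
Ccn1: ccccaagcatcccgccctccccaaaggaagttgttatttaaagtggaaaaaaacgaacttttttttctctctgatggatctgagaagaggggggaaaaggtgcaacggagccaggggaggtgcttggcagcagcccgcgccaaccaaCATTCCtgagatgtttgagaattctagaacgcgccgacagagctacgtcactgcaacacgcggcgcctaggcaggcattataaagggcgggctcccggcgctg
Cdc20: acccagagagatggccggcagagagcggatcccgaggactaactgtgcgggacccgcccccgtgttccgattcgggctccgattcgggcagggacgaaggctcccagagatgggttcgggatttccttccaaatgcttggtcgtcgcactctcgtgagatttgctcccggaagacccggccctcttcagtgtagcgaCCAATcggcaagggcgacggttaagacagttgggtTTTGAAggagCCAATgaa

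The elements were counted in the windows of all tested genes. A CArG box lay in the 250 bases of 7 of the 19 SRF/MRTF targets with a window (36.8%) and of 1.5% of the 11738 tested genes with one. CATTCC lay in 6 of 14 YAP/TAZ targets (42.9%) against 13.3% of all, but also in 7 of 19 SRF/MRTF targets (36.8%) and 5 of 14 mechanosensitive channels (35.7%). TTTGAA lay in 16 of 34 mitosis genes (47.1%) against 13.2% of all, and CCAAT in 27 of them (79.4%) against 40.0%. CCAAT lay in a higher share of the sterol genes, 16 of 17 (94.1%), and of the ER stress genes, 16 of 19 (84.2%). These are matches of letters, given as a description of the groups.

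No gene was called between the stiff and the soft gel. Expression is given as signal, the authors' normalized value on a linear scale whose lowest value is 1, and differences are those of log2(signal + 1), stiff minus soft, with the standard error (SE) from limma. Of the 22019 genes of the table, 16021 exceeded 1 in 3 or more of the 18 libraries and entered a limma fit of the 12 uninhibited libraries. A call needed a difference of at least 2-fold and a limma p under 0.05 after Benjamini-Hochberg adjustment. It was met by 0 of 16021 genes (0%), and the smallest adjusted p was 1. At an unadjusted limma p under 0.05, 109 genes (0.68%) were higher and 110 (0.687%) were lower on 308 kPa, of which 72 and 53 had a mean signal under 10. A difference of at least 2-fold was reached by 195 genes in the higher and 154 in the lower direction. With a median SE of 0.27 on the log2 scale, small differences were not detectable.

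The libraries fall into 3 runs of library numbers, 3 to 12, 15 to 24 and 27 to 36, each with 1 KDEL library on either gel: 4 and 8, 16 and 20, 28 and 32. The labels do not say what a run stands for. With the run as a block in the limma fit, 385 genes (2.4%) were higher and 476 (2.97%) lower at an unadjusted p under 0.05, 0 were called, and the smallest adjusted p was 0.781. The stiff library was the higher of the pair in all 3 runs for 1614 genes (10.1%) and the lower in all 3 for 1698 (10.6%). All 3 stiff libraries lay above all 3 soft ones for 342 genes (2.13%) and below them for 424 (2.65%). The counts of group members below are read against these shares. Below, a gene is said to be past the nominal limit where its unadjusted limma p was under 0.05, without the block unless the block is named. No gene named below passed after adjustment: its adjusted p was 1 in the fit without the block and at least 0.781 in the fit with it. A gene whose groups do not overlap has an exact permutation p of 0.1, the smallest that 3 against 3 libraries allow.

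Library 8, the first replicate on 308 kPa, stood apart from the other 5. Of 10583 genes with a mean signal of at least 100, 1054 differed at least 2-fold in library 8 from the mean of the other 5 libraries, 839 of them downwards, against 36 to 170 genes in each of the others. The summed signal divided by the signal of 1 read pair came to between 14250000 and 17960000 read pairs per library, with library 8 at the lower end. Without library 8, the sign of the difference turned for 40 of the 179 named genes and the median turned for 9 of the 29 gene lists. Values without library 8 are therefore given wherever a difference moves by more than 1.5 times without it, and its part in those differences was otherwise not tested.

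**Figure D1:**
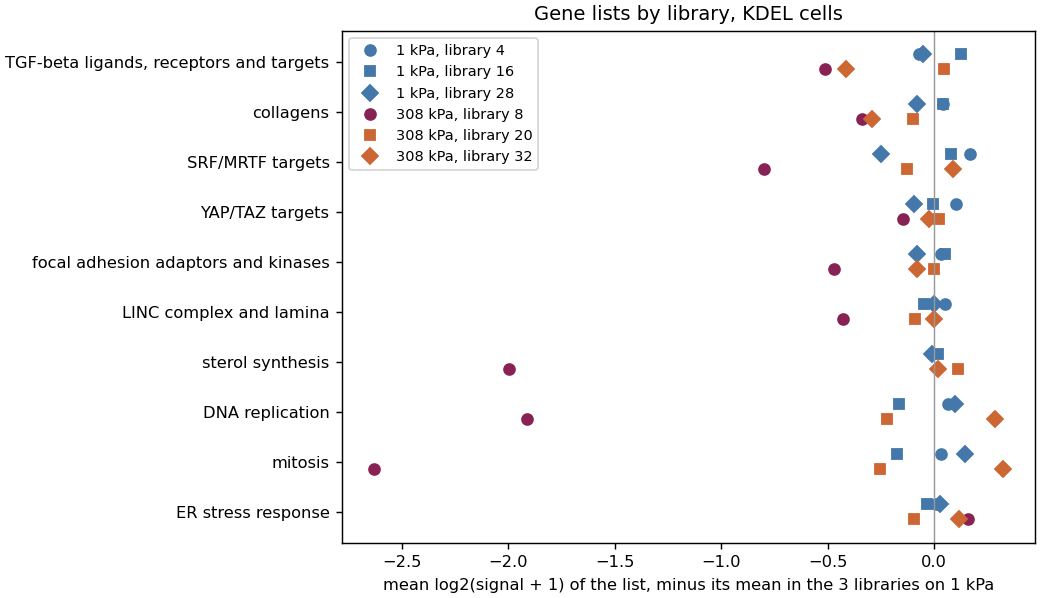
Mean log2(signal + 1) of 10 gene lists in each of the 6 KDEL libraries, as the difference from the mean of the 3 libraries on 1 kPa (x axis); blue marks 1 kPa, orange 308 kPa and purple library 8, and circles, squares and diamonds stand for the 3 runs. Library 8 lies far to the left for mitosis, DNA replication and sterol synthesis, where the other 2 stiff libraries lie among or near the soft ones.

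Of the 29 gene lists, that of the TGF-beta pathway had the highest share of members lower on the stiff gel in every run. Of the 21 members tested, 19 were lower and 2 higher on 308 kPa, with a median log2 difference of -0.27 against -0.01 over all tested genes, of -0.19 without library 8 and of -0.47 without library 20. In all 3 runs 10 of the 21 (47.6%) were lower and 0 higher. Past the nominal limit were 9 (42.9%) with the block and 3 (14.3%) without it, all lower. The list and its direction were chosen with earlier results of these libraries known, so the counts are no independent evidence. Library 20 went with the soft libraries when the list was averaged: its mean log2(signal + 1) was 11.07, between 10.95 and 11.15 on the soft gel, while libraries 8 and 32 were at 10.51 and 10.61.

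Among the ligands, Tgfb1, the main TGF-beta isoform, had signals of 546, 753 and 731 in soft libraries 4, 16 and 28 and of 332, 738 and 432 in stiff libraries 8, 20 and 32. Libraries 8 and 32 were low and library 20 was within the soft range. Its log2 difference was -0.50 ± 0.31 (SE; past the nominal limit with the block), or -0.25 without library 8. Tgfb2 had 613, 654 and 469 on soft and 433, 571 and 386 on stiff, a difference of -0.33 ± 0.22 (past the nominal limit with the block). Tgfb3 had 2921, 3352 and 3212 on soft and 2256, 3378 and 1979 on stiff, a difference of -0.35 ± 0.18 (past the nominal limit with the block). Library 20 lay within the soft values of Tgfb2 and just above those of Tgfb3. Inhba, the activin A subunit, differed by -0.12 ± 0.21.

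The receptors had differences near 0. Tgfbr1 and Tgfbr2, the signaling receptors, had log2 differences of -0.02 ± 0.29 and 0.01 ± 0.24, and the co-receptor Tgfbr3 one of 0.07 ± 0.33; without library 8 they were -0.07, -0.08 and -0.00. Differences smaller than these errors were not detectable. Ltbp2, a latent TGF-beta binding protein of the matrix, had 5052, 10730 and 4922 on soft and 2644, 10270 and 3002 on stiff, so that library 16 and library 20 were high together and the groups overlapped. Its log2 difference was -0.57 ± 0.52, past the nominal limit with the block, and -0.21 without library 8.

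The members of the list without overlap between gels were Id3 and Id1, both counted among its targets. Id3, an inhibitor of helix-loop-helix transcription factors and an early target of SMAD signaling, had signals of 7456, 8734 and 7807 on soft and 5251, 6570 and 5246 on stiff. Every stiff library lay below every soft one. The means were 7999 ± 660 and 5689 ± 763 (SD, n = 3 each), 1.41-fold lower on stiff, with a log2 difference of -0.50 ± 0.15 (past the nominal limit in both fits). Without library 8 the difference was -0.44, and within the runs it was -0.51, -0.41 and -0.57. Its relative Id1 had 5279, 3993 and 5011 on soft and 3359, 3497 and 3948 on stiff, again without overlap, at -0.40 ± 0.16 (past the nominal limit in both fits) and -0.35 without library 8. Library 16 was the lowest soft library and lay just above library 32.

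Smad7, the inhibitory SMAD that the pathway induces against itself, had 3363, 4502 and 3870 on soft and 2280, 3703 and 3073 on stiff. Its groups overlapped, since library 20 lay above library 4, but the stiff library was lower within each run, by -0.56, -0.28 and -0.33. The log2 difference was -0.39 ± 0.18 (past the nominal limit in both fits) and -0.20 without library 8. Smad6, the other inhibitory SMAD, differed by -0.31 ± 0.31, past the nominal limit with the block. Skil and Pmepa1, both feedback inhibitors, were lower on stiff in all 3 runs without passing the nominal limit. Tgfb1, Inhba, Ltbp2, Smad6, Tgfbr1, Tgfbr2, Skil and Pmepa1 were named after their values were seen.

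**Figure D2:**
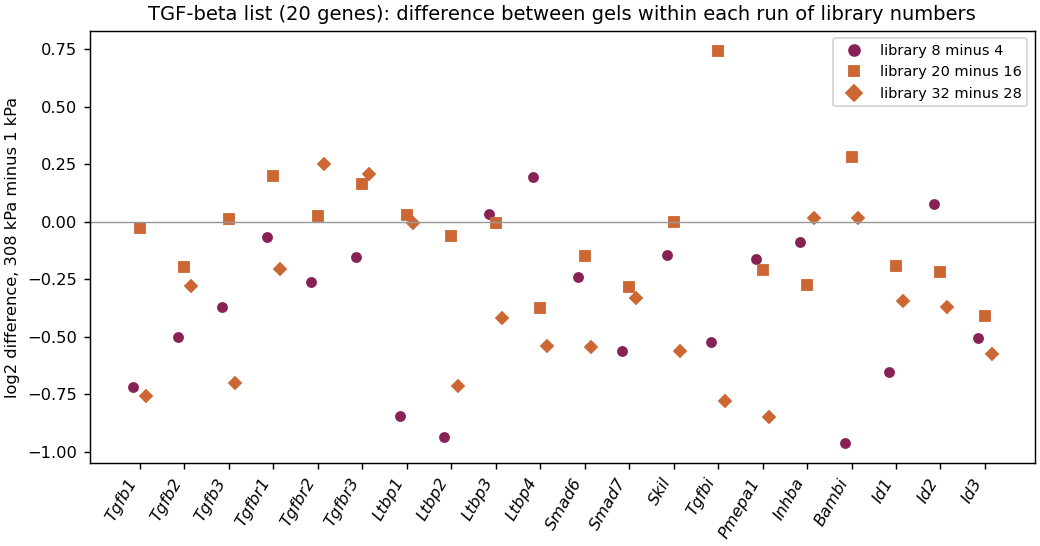
Log2 difference between the stiff and the soft KDEL library of each run (y axis) for 20 of the 21 tested genes of the TGF-beta list (x axis); circles are library 8 minus 4, squares 20 minus 16 and diamonds 32 minus 28. All 3 points lie below 0 for 9 of the genes shown and above 0 for none.

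Of the 16021 tested genes, 27 lower and 11 higher on stiff were above the median level, past the nominal limit and without overlap between gels. Without the limits on level and overlap, 110 were lower and 109 higher past the nominal limit. The 12 largest falls among the 27 included Snai1, Klf10, Nfatc1 and Ror2, which were on none of the lists. Snai1, a transcriptional repressor of epithelial genes and a TGF-beta target in many cells, had 2467, 3134 and 2351 on soft and 1776, 2323 and 1240 on stiff. The highest stiff library lay just below the lowest soft one. Its log2 difference was -0.61 ± 0.27 (past the nominal limit in both fits) and -0.63 without library 8. Klf10, also known as TGF-beta-inducible early gene, had 2303, 2654 and 2313 on soft and 1423, 2064 and 1831 on stiff, a difference of -0.46 ± 0.18 (past the nominal limit in both fits). Nfatc1, a calcium-regulated transcription factor, had 1225, 1551 and 1465 on soft and 669, 1042 and 862 on stiff, 1.67-fold lower, at -0.74 ± 0.27 (past the nominal limit in both fits). All stiff libraries lay below all soft ones for each of these genes, as the rule that named them requires. Ror2, a receptor for Wnt ligands, was named by the same rule, at -0.66 ± 0.27 (past the nominal limit in both fits) and -0.42 without library 8.

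**Figure D3:**
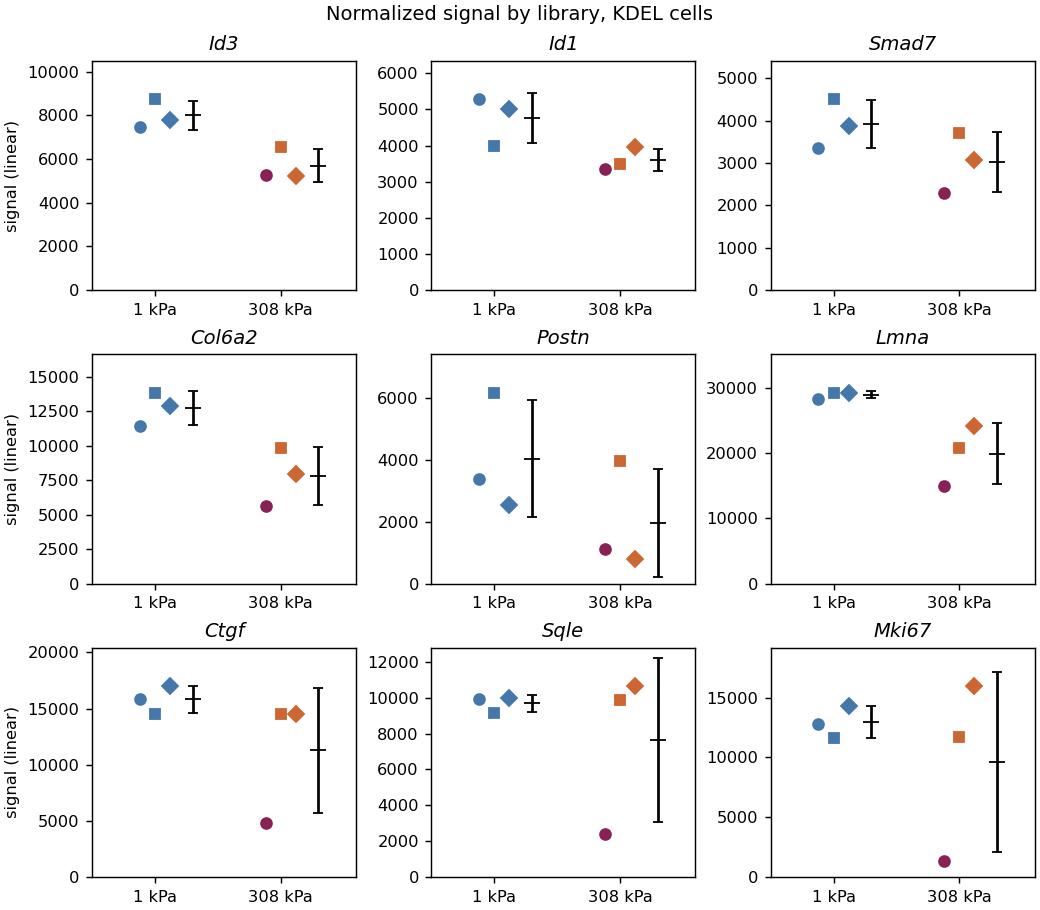
Signal of 9 genes on a linear scale (y axis) in the 3 KDEL libraries on 1 kPa (blue) and on 308 kPa (orange; purple is library 8), with the mean ± SD at the right of each group; circles, squares and diamonds stand for the 3 runs. Id3, Id1, Col6a2 and Lmna are lower in every stiff library, whereas for Sqle and Mki67 only library 8 is far below the soft libraries.

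Collagen transcripts were lower on the stiff gel for most members. Of 22 tested collagen genes, 18 were lower and 4 higher, with a median of -0.34, or -0.17 without library 8. In all 3 runs 7 (31.8%) were lower and 0 higher, and 6 (27.3%) were lower past the nominal limit with the block. The type VI chains, which form beaded filaments around cells, led the group. Col6a2 had 11400, 13830 and 12860 on soft and 5595, 9812 and 7952 on stiff, with every stiff library below every soft one. It was 1.67-fold lower, with a log2 difference of -0.74 ± 0.27 (past the nominal limit in both fits) and -0.52 without library 8. Col6a1 had 15990, 19030 and 18460 on soft and 7920, 15420 and 11910 on stiff, also without overlap, at -0.65 ± 0.28 (past the nominal limit in both fits) and -0.39 without library 8. Col6a3 had 14920, 21510 and 21130 on soft and 4357, 20120 and 15460 on stiff. Here libraries 20 and 32 lay within the soft range and the difference of -0.77 ± 0.61 (past the nominal limit with the block) was -0.10 without library 8.

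The abundant fibrillar collagens did not separate the gels. Col1a1 had 96740, 58890 and 79040 on soft and 49150, 44810 and 83220 on stiff, and library 32 was above library 28. Its log2 difference was -0.43 ± 0.39. Col3a1 had 9438, 7692 and 6454 on soft and 9654, 5067 and 4695 on stiff, so that library 8 was the highest of the 6; the difference was -0.34 ± 0.50, and -0.67 without that library. Col27a1, a fibrillar collagen of cartilage that was not on the list and was named because its groups did not overlap, had 1322, 1804 and 1728 on soft and 1044, 1278 and 918 on stiff, at -0.58 ± 0.22 (past the nominal limit in both fits) and -0.57 without library 8. Col16a1 was lower within all 3 runs, at -0.50 ± 0.29 (past the nominal limit with the block), and its difference was -0.17 without library 8.

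Other matrix genes were lower on balance. Of 35 glycoproteins and proteoglycans, 26 were lower and 9 higher, with a median of -0.18, or -0.08 without library 8. In all 3 runs 10 (28.6%) were lower and 1 (2.9%) higher. Postn, the matricellular protein periostin, had 3382, 6168 and 2546 on soft and 1108, 3970 and 785 on stiff. The groups overlapped because library 20 lay above libraries 4 and 28, yet the stiff library was the lower in each run, by -1.61, -0.64 and -1.70. The log2 difference was -1.31 ± 0.69 (past the nominal limit with the block), 2.49-fold lower. Thbs3, a thrombospondin, had 667, 904 and 812 on soft and 455, 605 and 687 on stiff, at -0.46 ± 0.18 (past the nominal limit in both fits) and -0.29 without library 8, and was the member of the list past that limit without the block. Matn2, a matrilin, differed by -0.53 ± 0.29 (past the nominal limit with the block). Fn1, fibronectin, the ligand that coats the gels and is also made by the cells, differed by 0.03 ± 0.57, or -0.06 without library 8, with signals between 165800 and 423100 and wide overlap. Efemp1, a fibulin, was the member higher in all 3 runs, with 19930, 13090 and 14440 on soft and 27450, 14730 and 19970 on stiff, at 0.37 ± 0.23 (past the nominal limit with the block). Without library 8 its difference was 0.14.

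Genes of matrix remodeling gave smaller differences. Of 31 proteases, inhibitors and crosslinking enzymes 22 were lower and 9 higher, with a median of -0.13, or -0.07 without library 8, and 5 (16.1%) were lower in all 3 runs. Adamts12, a secreted metalloprotease, had 1638, 1460 and 1305 on soft and 922, 1210 and 905 on stiff, without overlap, at -0.54 ± 0.19 (past the nominal limit in both fits) and -0.48 without library 8. Lox, lysyl oxidase, which crosslinks collagen, had 54510, 36230 and 29960 on soft and 52390, 37730 and 32290 on stiff. Its difference was 0.04 ± 0.41, or -0.16 without library 8, and within each run the gels were nearly equal, at -0.06, 0.06 and 0.11.

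Most adhesion genes were lower on the stiff gel, and their medians were near 0 without library 8. Of 27 focal adhesion adaptors and kinases 23 were lower, with a median of -0.18, which was -0.02 without library 8, and of 19 integrins 14 were lower, with a median of -0.16 that was 0.00 without it. Within the runs the medians of the adaptors and kinases were -0.45, -0.06 and 0.05, and those of the integrins -0.32, 0.12 and -0.27, so that the integrins were also lower in library 32. Of the 27 adaptors and kinases, 3 (11.1%) were lower without overlap against 2.65% of all genes, 5 (18.5%) were lower in all 3 runs against 10.6%, and 4 (14.8%) were lower past the nominal limit with the block against 2.97%. Pdlim7, an actin-binding scaffold, was the adaptor past the nominal limit without the block: 2760, 2889 and 2899 on soft and 1796, 2253 and 2412 on stiff, without overlap, at -0.41 ± 0.15 (past the nominal limit in both fits). Ilk, integrin-linked kinase, was at 84.3, 85.6 and 96.1 on soft and at 62.8, 53.1 and 72.3 on stiff, also without overlap, at -0.50 ± 0.25 (past the nominal limit with the block) and -0.51 without library 8. Itgb3, the beta3 chain of the vitronectin receptor, had 546, 1536 and 1923 on soft and 198, 1283 and 475 on stiff. Both groups spread widely and overlapped, but the stiff library was the lower in each run, at -1.46, -0.26 and -2.02, for a difference of -1.25 ± 0.75 (past the nominal limit with the block), or -0.59 without library 8. Itga5, the fibronectin receptor chain, differed by -0.53 ± 0.40 (past the nominal limit with the block) and by -0.08 without library 8. Itgb1, the chain shared by most matrix receptors, differed by -0.11 ± 0.21, or 0.04 without library 8.

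SRF/MRTF targets were lower in library 8 and close to the soft level in the other stiff libraries. Of 23 members 21 were lower, with a median of -0.36, but the median was -0.02 without library 8, and 3 (13.0%) were lower in all 3 runs against 10.6% of all genes. Srf had 2517, 2324 and 2179 on soft and 1436, 2016 and 2123 on stiff, without overlap, at -0.35 ± 0.19 (past the nominal limit with the block) and -0.18 without library 8. Acta2, smooth muscle actin, had 30540, 25390 and 15770 on soft and 8635, 20880 and 23180 on stiff. Library 8 was the lowest, libraries 20 and 32 were within the soft range, and the difference was -0.52 ± 0.61, or -0.07 without library 8. Tagln, transgelin, differed by -0.56 ± 0.60 and by 0.02 without library 8, and Vcl, vinculin, by -0.22 ± 0.31 and 0.07. Smtn, smoothelin, an actin-binding protein not on the list, had 2956, 3003 and 2575 on soft and 1611, 2163 and 2224 on stiff, without overlap, at -0.52 ± 0.17 (past the nominal limit in both fits) and -0.37 without library 8.

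YAP/TAZ targets did not separate the gels as a group. Of 20 members 15 were lower and 5 higher, with a median of -0.09 and of -0.08 without library 8, and 3 (15%) were lower and 2 (10.0%) higher in all 3 runs. Ctgf, the connective tissue growth factor, had 15890, 14560 and 17010 on soft and 4850, 14520 and 14490 on stiff. Library 8 was far below and the other stiff libraries lay just under the lowest soft one, so the difference of -0.65 ± 0.49 was -0.12 without it. Cyr61, whose promoter is printed above, had 17780, 11930 and 11240 on soft and 8206, 8672 and 13590 on stiff, at -0.43 ± 0.25. Library 32 was above 2 of the 3 soft libraries. Ankrd1, a cardiac ankyrin repeat protein and TEAD target, differed by -0.09 ± 0.17, or -0.02 without library 8. Nt5e was above its soft values in every stiff library, but at signals of 1 to 6.68, near the value of a few read pairs.

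Most contractility genes were lower on the stiff gel by small amounts. Of 24 genes of myosin II and its upstream regulators 19 were lower, with a median of -0.11, which was -0.00 without library 8, and with medians of -0.21, -0.05 and -0.05 within the runs. Myh9, the heavy chain of nonmuscle myosin IIA, had 71010, 67160 and 60060 on soft and 37530, 64870 and 60080 on stiff, at -0.32 ± 0.27 and -0.08 without library 8. Rock1, a kinase that activates myosin, differed by -0.15 ± 0.12, or -0.04 without library 8. Arhgef1, a guanine nucleotide exchange factor, differed by -0.27 ± 0.16 (past the nominal limit with the block) and was lower in all 3 runs. Of 17 mechanosensitive channels 11 were lower. Piezo1, the stretch-activated cation channel, had 17270, 17510 and 13230 on soft and 14190, 16380 and 13120 on stiff, at -0.13 ± 0.16, and Trpv4, at signals of 2.16 to 21.98, differed by -1.21 ± 0.59 (past the nominal limit with the block), or -0.58 without library 8.

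The genes of the LINC complex and the lamina bear on the cells' own link between cytoskeleton and nucleus. Of 21 members 14 were lower and 7 higher, with a median of -0.04, or -0.02 without library 8. Lmna, which encodes lamins A and C and whose protein is known to scale with tissue stiffness, had 28360, 29240 and 29310 on soft and 14930, 20850 and 24120 on stiff. The soft libraries were nearly equal, and each stiff library lay below them. The means were 28970 ± 530 and 19970 ± 4656 (SD, n = 3 each), 1.48-fold lower, at -0.56 ± 0.29 (past the nominal limit with the block) and -0.37 without library 8. Lmnb2 was lower in all 3 runs, at -0.45 ± 0.25 (past the nominal limit with the block) and -0.26 without library 8, while Lmnb1, whose level follows cell division, had 3653, 2445 and 3376 on soft and 576, 2013 and 4249 on stiff, at -0.87 ± 0.89, or -0.09 without library 8. Of the complex itself, Sun1 differed by 0.01 ± 0.24 and Sun2 by -0.22 ± 0.15 (past the nominal limit with the block), or -0.02 and -0.14 without library 8. The nesprin genes Syne1, Syne2 and Syne3 differed by 0.32 ± 0.42, -0.27 ± 0.34 and -0.52 ± 0.40, which were 0.05, 0.12 and -0.17 without library 8.

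Division genes had the largest median difference of the lists, and it rested on library 8. All 41 mitosis genes tested were lower on stiff, with a median of -0.87, but the median was 0.04 without library 8, 2 (4.9%) were lower in all 3 runs, and 0 were past the nominal limit in either fit. The mean log2(signal + 1) of the list was 11.76, 11.55 and 11.87 on soft and 9.10, 11.47 and 12.05 on stiff. Library 8 was low, and library 32 was the highest of the 6. Mki67, the proliferation antigen, had 12820, 11640 and 14320 on soft and 1320, 11660 and 15960 on stiff, for a difference of -1.04 ± 1.25, or 0.08 without library 8. Top2a, topoisomerase II alpha, had 22930, 21640 and 26160 on soft and 4071, 21460 and 28330 on stiff. Of 39 DNA replication genes 38 were lower, with a median of -0.63 that was 0.05 without library 8. Ccne2, the S phase cyclin E2, was the member without overlap, at 1064, 1077 and 1021 on soft and 293, 960 and 984 on stiff.

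Lipid synthesis followed the same library. All 25 sterol genes tested were lower, with a median of -0.61 that was 0.08 without library 8. The list's mean log2(signal + 1) was 11.74, 11.77 and 11.74 on soft and 9.75, 11.86 and 11.77 on stiff. Sqle, squalene epoxidase, had 9944, 9166 and 9994 on soft and 2378, 9889 and 10660 on stiff. Libraries 20 and 32 were at or above the soft level, and the difference of -0.62 ± 0.70 was 0.08 without library 8. Hmgcs1, which makes the HMG-CoA of the mevalonate pathway, had 11040, 9183 and 10190 on soft and 2735, 9901 and 10200 on stiff, at -0.63 ± 0.59, or -0.01 without library 8. Of 14 fatty acid genes 12 were lower, with a median of -0.26 that was 0.10 without library 8. Srebf1, the transcription factor of lipid synthesis, was the exception in this list: its signals of 2517, 2635 and 2383 on soft and 2151, 2291 and 2034 on stiff did not overlap, at -0.22 ± 0.09 (past the nominal limit in both fits) and -0.22 without library 8.

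Several genes of stress and growth arrest were highest in library 8. Trib3, a pseudokinase induced by amino acid and endoplasmic reticulum stress, had 663, 486 and 778 on soft and 3448, 342 and 833 on stiff. Ddit3, the stress transcription factor CHOP, had 977, 870 and 1183 on soft and 2824, 821 and 1524 on stiff, and Asns, asparagine synthetase, had 7378, 6105 and 7149 on soft and 12690, 6465 and 8030 on stiff. In each, library 8 was the highest. Their log2 differences were 0.66 ± 0.85, 0.60 ± 0.45 and 0.34 ± 0.24, or -0.24, 0.16 and 0.07 without library 8, and those of Ddit3 and Asns were past the nominal limit with the block. Cdkn1a, the cyclin-dependent kinase inhibitor p21, had 10390, 10820 and 10610 on soft and 18510, 10390 and 11090 on stiff. Of the 20 ER stress genes 10 were higher and 10 lower, and of the 22 growth arrest genes 11 were higher and 11 lower.

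**Figure D4:**
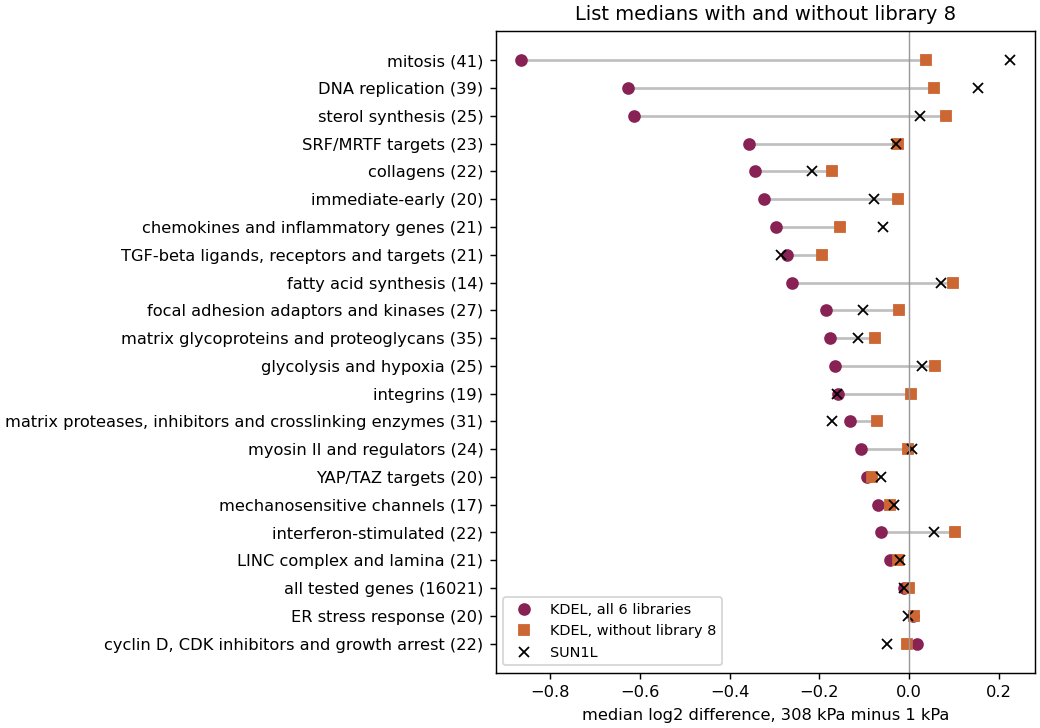
Median log2 difference between gels (x axis) over the tested members of each list (y axis; number of members in parentheses) in KDEL cells with all 6 libraries (purple circles), in KDEL cells without library 8 (orange squares) and in SUN1L cells (crosses). The KDEL medians of mitosis, DNA replication and sterol synthesis move from -0.87, -0.63 and -0.61 to 0.04, 0.05 and 0.08 without library 8, while those of TGF-beta genes and collagens stay negative at -0.19 and -0.17.

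Signaling and inflammatory genes gave few differences that recurred. Of 20 immediate-early genes 15 were lower, with a median of -0.32 that was -0.02 without library 8. Dusp6, a phosphatase that reports ERK activity, had 3951, 5360 and 3421 on soft and 1585, 4338 and 2715 on stiff, and was the lower in each run, at -0.65 ± 0.32 (past the nominal limit with the block), or -0.28 without library 8. Jun differed by -0.45 ± 0.26 (past the nominal limit with the block), or -0.15 without library 8. Fosl1 differed by -0.50 ± 0.29 (past the nominal limit with the block), or -0.18 without library 8. Fos had 1507, 521 and 555 on soft and 361, 449 and 1586 on stiff, at -0.25 ± 1.00, or 0.15 without library 8, and Egr1 differed by -0.32 ± 0.52. Of 21 chemokine and inflammatory genes 15 were lower, with a median of -0.30, or -0.15 without library 8, and 5 (23.8%) were lower in all 3 runs. Ptgs2, cyclooxygenase 2, had 21450, 17080 and 12370 on soft and 6244, 16030 and 13110 on stiff, at -0.60 ± 0.46, or -0.19 without library 8, and Cxcl12 differed by -0.30 ± 0.37, or -0.46 without it. Of 22 interferon-stimulated genes 12 were lower and 10 higher, at a median of -0.06 that was 0.10 without library 8. Of 25 glycolysis and hypoxia genes 23 were lower, at a median of -0.16 that was 0.06 without library 8.

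The genes that the naming rule picked as higher on the stiff gel had small differences. Of the 11 genes above the median level that were higher without overlap and past the nominal limit, all differed by between 0.22 and 0.36 on the log2 scale. They do not stand for all higher genes, since 195 tested genes of any level were at least 2-fold higher. Spg21, a protein of endosomal and lysosomal membranes also called maspardin, had 2142, 2251 and 2143 on soft and 2756, 2893 and 2455 on stiff, 1.24-fold higher, at 0.31 ± 0.10 (past the nominal limit in both fits) and 0.29 without library 8. Sqrdl, the mitochondrial enzyme that oxidizes sulfide, had 2048, 1731 and 1782 on soft and 2556, 2497 and 2082 on stiff, 1.28-fold higher, at 0.36 ± 0.13 (past the nominal limit in both fits). Wdr35, a component of the transport machinery of cilia, had 2182, 2190 and 2278 on soft and 2747, 2662 and 2620 on stiff, the narrowest groups of the 3 genes, at 0.27 ± 0.10 (past the nominal limit in both fits). Pcca, a subunit of propionyl-CoA carboxylase, Psmd10, a chaperone of proteasome assembly, and Alg5, an enzyme of protein glycosylation, were among the others, at 0.31 ± 0.13, 0.32 ± 0.13 and 0.32 ± 0.14.

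Markers of the cell type were those of fibroblasts on both gels. The summed signal of 10 fibroblast markers was 629900 to 792700 on soft and 599300 to 762800 on stiff, and Col1a1, Col1a2, Fn1 and Vim were abundant in all 6 libraries. The summed signals of 10 leukocyte markers were 285 to 326 and 200.4 to 354, of 8 epithelial markers 231 to 289 and 250 to 352, of 7 endothelial markers 367 to 618 and 399 to 752, of 7 muscle markers 225 to 313 and 291 to 408, and of 7 neural markers 49.9 to 75.1 and 42.4 to 73.5. The ranges of the gels overlapped for every list. Tyrobp, Cd3e, Epcam, Krt18, Cldn5, Myod1, Cebpa and Sox10 were at the lowest value in all 6 libraries. Other members of these lists were detected. The highest leukocyte, epithelial, endothelial, muscle and neural markers were Cd68, Cdh1, Tek, Des and Mbp, at mean signals of 128.9, 166.7, 319.6, 268.1 and 37.05. The 7 adipocyte markers summed to 1317 to 1878 and 1261 to 2463, most of it Lpl, and the 7 cartilage and bone markers to 9859 to 16120 and 8141 to 14380, most of it Sox9, a factor of chondrocytes that fibroblasts can express. Vwf, Sp7 and Col2a1 were past the nominal limit at signals of 5.38 to 21.6, 1.96 to 8.17 and 8.94 to 68.9, with differences of 1.06 ± 0.41, -1.19 ± 0.44 and -1.27 ± 0.57. In bulk samples fewer cells of a type and less RNA per cell cannot be told apart.

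The same gels were compared in SUN1L cells, and the difference between the cell lines was tested as an interaction. At an unadjusted p under 0.05, 145 of 16021 genes (0.905%) differed in their stiffness effect between SUN1L and KDEL cells, 0 were called, and the smallest adjusted p was 1. None of the 179 named genes was among the 145. This does not show that the cell lines respond alike, since the error of an interaction is larger than that of either comparison. Id3 in SUN1L cells was at 7831 ± 1040 on soft and 5585 ± 733 on stiff (SD, n = 3 each), a log2 difference of -0.49 ± 0.15 (past the nominal limit) beside the -0.50 of KDEL cells. The interaction was 0.01 ± 0.21, with an adjusted p of 1 in limma. Col6a2 was at 10740 ± 2481 on soft and 6653 ± 2142 on stiff in SUN1L cells, a difference of -0.72 ± 0.27 (past the nominal limit), with an interaction of 0.02 ± 0.38. Snai1 differed by -0.69 ± 0.27 (past the nominal limit), Col27a1 by -0.59 ± 0.22 (past the nominal limit), Smtn by -0.43 ± 0.17 (past the nominal limit), Spg21 by 0.29 ± 0.10 (past the nominal limit) and Sqrdl by 0.33 ± 0.13 (past the nominal limit) in SUN1L cells. Of the 12 largest falls of KDEL cells, all 12 had the same sign in SUN1L cells and 6 were past the nominal limit there, and of the 11 rises all 11 had the same sign and 2 were past it. Over all 16021 tested genes, 8389 were lower on stiff in SUN1L cells. The shares of all genes with the same sign in both lines, and past the limit in SUN1L cells, were not counted. Among the falls and rises not past the limit in SUN1L cells, Klf10 differed by -0.21 and Pdlim7 by -0.23 there, and Nicn1, Yipf1, Tmbim4 and Alg5 by 0.05, 0.04, 0.07 and 0.08. The libraries of the cell lines are separate, but the fit takes 1 variance per gene over both, so the SE is the same in each and the nominal limit in SUN1L cells is not independent of the choice of these genes.

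**Figure D5:**
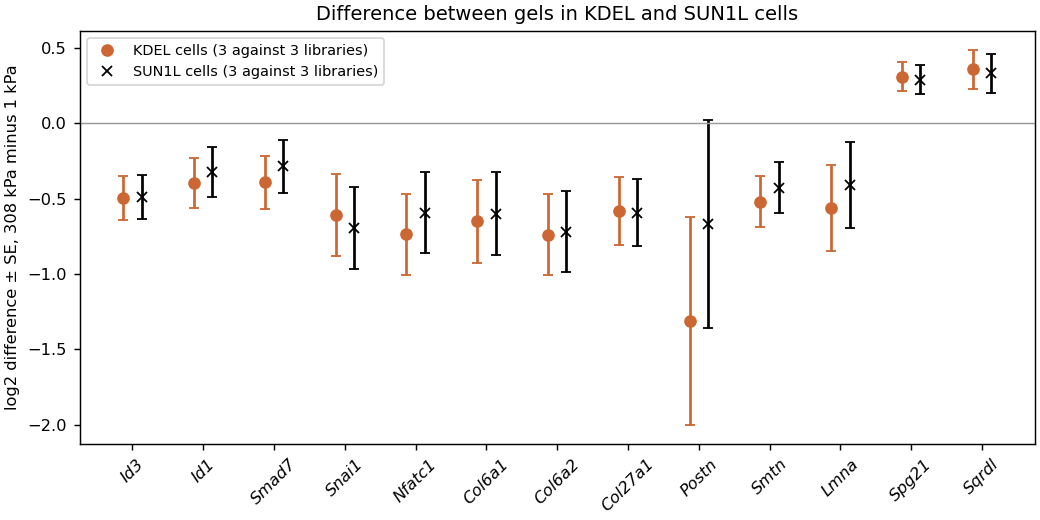
Log2 difference ± SE between the stiff and the soft gel (y axis) for 13 named genes (x axis) in KDEL cells (orange circles) and in SUN1L cells (black crosses), 3 against 3 libraries in each. The sign is the same in both cell lines for all 13 genes, which were picked for display from the named genes; Id3 lies at -0.50 and -0.49, and Postn at -1.31 and -0.67 has the widest errors.

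The medians of some lists were close in the cell lines and those of others were not, and likeness was not tested. The TGF-beta list had 19 of 21 members lower on stiff in SUN1L cells too, with a median of -0.29, and the collagens 17 of 22, with a median of -0.22. The chemokine and inflammatory genes had a median of -0.06 in SUN1L cells against -0.30, or -0.15 without library 8, in KDEL cells. The 6 tested epithelial and the 6 adipocyte markers, at low signals for most, had medians of -0.31 and -0.18 in SUN1L cells against 0.15 and 0.34 in KDEL cells, which were 0.10 for both without library 8. The mitosis list had 0 of 41 members lower in SUN1L cells, with a median of 0.22, against 41 of 41 lower in KDEL cells, but 0 of the 41 were past the nominal limit in the interaction. Mki67 spread widely in SUN1L cells, with 6733 ± 5288 on soft and 8578 ± 6628 on stiff. Within the runs its log2 differences there were 0.27, 0.46 and 0.27, so most of that spread lay between runs. Spread between runs enters the error of the interaction count above, which came from the fit without the block. Over the 10583 genes with a mean signal of at least 100, Spearman's correlation between the differences of the cell lines was 0.182, given as a description across genes, which are not independent.

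KDEL cells on 308 kPa with a myosin inhibitor are given as levels, since any difference would share the uninhibited stiff libraries used above. With 25 µM Y27, an inhibitor of ROCK, the signal of Id3 was 6906 ± 1094 (SD, n = 3), and in the 2 libraries with 10 µM blebbistatin, an inhibitor of myosin II, the mean was 6865, beside 5689 ± 763 without inhibitor. For Lmna these levels were 28060 ± 4956, 22300 and 19970 ± 4656, and for Col6a2 13830 ± 3544, 8488 and 7786 ± 2113. Snai1 was at 2151 ± 444, 2524 and 1780 ± 542, and Nfatc1 at 870 ± 185, 691 and 858 ± 186. Col27a1 was at 995 ± 213, 1055 and 1080 ± 183. In the same order, the means were 2874, 2917 and 1773 for Klf10 and 1542, 1667 and 1013 for Adamts12. They were 3355, 2724 and 2000 for Smtn and 658, 633 and 476 for Ror2. Map1s was at 2905, 2910 and 2383, Pdlim7 at 2369, 2546 and 2153, and Col6a1 at 20270, 12400 and 11750. Of the 12 largest falls, all but Nfatc1 and Col27a1 were higher with both inhibitors. These 12 were picked as low in the same uninhibited stiff libraries, so that direction is not independent of the choice. Lmna was picked for display, and an effect of the inhibitors was not tested.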

How the data were processed

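Polyadenylated RNA of each library was sequenced as 50-bp paired-end reads. Per the labels and the methods of the study, reads were aligned with TopHat2 2.0, filtered and quantified in AvadisNGS. The authors deposited 1 normalized signal per gene and library (trimmed mean of M-values, lowest value 1), not counts. The labels name mm9, but gene ends in the table lie within 1000 bases of those of GRCm38.p6 for 87.0% of matched genes and of mm9 for 5.3%; no coordinate of the table is printed. Depth was estimated from the step between low values, and whole reads were not recovered.

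From these values log2(signal + 1) was fitted with limma 3.58.1 in R 4.3.3 (1 mean per group, variance trend, two-sided tests), which was tested on simulated data. With 3 against 3 libraries an exact permutation test cannot go below 0.1. Deviations of the paired libraries from their group means correlated at 0.236, 0.513 and 0.597 in the 3 runs, so the run was used as a block; this pairing comes from the data and not from the labels. The members and gene lists were chosen with earlier results of these data known. Named genes were the 12 largest rises and falls without overlap, at p under 0.05 and above the median level (11 rises qualified), up to 4 members of each list with the smallest p, its extremes, and fixed genes. No member of a list of mitochondrial and nuclear RNAs is in the table. Library 34 has conflicting labels and entered no comparison. Results for a few list members are not reported here, though the counts and medians of their lists include them.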

Additional observations from a re-analysis of the deposited data

How the results depend on the processing

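No gene was called in either comparison under any limma alternative. A z-test of proportions, which has no term for the spread between libraries, called 273 genes between gels in KDEL cells and put 8224 at an unadjusted p under 0.05. That count, 219 as reported, was 343 with no filter on low values, 92 with a mean of at least 10, 861 with the replicate block on runs of library numbers, 383 with the 6 KDEL libraries alone and that block, 358 without library 8 and with that block, and 424 with the 6 KDEL libraries alone without library 8, a choice made after the data were seen. Fewer genes were tested with the stricter filter; for the other settings the cause was not tested. Leaving out each library in turn it was 163, without library 8, to 555, without library 20. With no filter, 2 genes passed adjustment between gels and 1 in the interaction, all under 2-fold.

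The sign of the difference turned for 40 of the 179 named genes without library 8, for 12 without it under the block, for 36 without libraries 3 to 12, and for at most 10 under every other alternative run. A read pair was worth 1.88 to 2.21 units of signal, so a gene with a signal of a few units rests on a few read pairs, and differences at that level were not detectable.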
